A study of Mus musculus with 4 samples.

Results

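The genes of the constitutive 26S proteasome and of the proteins that assemble and regulate it were measured in bone marrow leukemic stem cells (LSCs) with and without CD37, a tetraspanin of the leukocyte surface. Members were the protein-coding genes whose mouse symbol is Psm, a letter from a to g and a number, without the immunoproteasome subunits *Psmb8*, *Psmb9* and *Psmb10*. This gave 46 of the 17104 genes in the deposited table, with 16 genes of the 20S core, 17 of the 19S cap and 13 others. The study induced acute myeloid leukemia in mice by transplanting lineage-negative bone marrow cells that carried the MLL-AF9 fusion and YFP on a retrovirus. The donors of both groups carried floxed *Cd37* and an inducible Cre (CreERT2) at the widely active Rosa26 locus, and recipients of the first transplantation received tamoxifen (CD37 -/- LSCs) or corn oil (CD37 fl/fl LSCs). YFP+, c-kit+ cells were then passed to sublethally irradiated recipients, and cells of the same phenotype were sorted at week 6 for poly(A) RNA sequencing. All samples were male, of strain C57, and each group had 2 libraries. Whether a library came from 1 mouse or from several is not stated, so p-values measure only the spread between these libraries. The ages of the mice are not given in the labels.

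The proteasome degrades proteins that carry ubiquitin chains. Its 20S core is a barrel of stacked rings, in which the outer alpha rings gate the entry and the inner beta rings hold the proteolytic sites. The 19S cap binds the ubiquitin chain, removes it, unfolds the substrate with a ring of ATPases and feeds it into the core. Dedicated chaperones build the core and the base of the cap and are absent from the finished particle. Other activators can replace the cap, and immune cells can exchange the catalytic beta subunits for the interferon-inducible immunoproteasome subunits. The drug bortezomib binds the beta subunit encoded by *Psmb5*.

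The deposited unit is FPKM, fragments per kilobase of gene span, scaled to the depth of the library. Reads were recovered from these values and gave totals from 15139063 to 22562837 reads over genes per library. Fold changes are differences of log2(FPKM + 1) between CD37 -/- and CD37 fl/fl LSCs, a scale that understates the change of low genes. They were tested with limma over the 6761 genes whose FPKM averaged 1 or more. *Cd37* itself was at 56.6 and 46.8 FPKM in CD37 fl/fl against 23.2 and 22.9 in the CD37 -/- libraries, or 44.6% of the control mean. Of the markers of the sorted cells, *Kit* was at 213 and 460 reads in CD37 fl/fl against 474 and 804 reads in CD37 -/- libraries, and *Elane* had an FPKM between 1750 and 1884 in all 4. *Hoxa9* (38.8 and 42.4 FPKM against 47.2 and 42.04) overlapped between the groups, *Ptprc* (0.765 and 0.841 against 1.78 and 2.93) and *Meis1* (0.512 and 0.573 against 0.884 and 0.851) were higher in both CD37 -/- libraries, and the granule genes *Mpo* (80.3 and 51.6 against 34.4 and 20.8) and *Ctsg* (403 and 1357 against 375 and 362) were lower in both. CD37 fl/fl replicate 2 stood apart in 7 mature neutrophil markers, whose FPKM summed to 3581 there and to between 10234 and 18366 in the other libraries. FPKM over all genes summed to 260590 and 257393 in CD37 fl/fl against 217309 and 181944 in CD37 -/- libraries.

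Most proteasome genes had lower values in CD37 -/- LSCs than in CD37 fl/fl LSCs, by a moderate amount. Of the 41 members tested, 25 (61.0%) had both CD37 -/- values below both CD37 fl/fl values, against 23.7% of all tested genes. A further 4 members (9.76%) were higher in both, against 38.2% of all tested genes, and 12 overlapped. The median log2 fold change of the members was -0.36, that of all tested genes was 0.11, and 36 of the 41 members lay below the latter. *Psma3*, *Psmd1*, *Psmd2* and *Psme3* were the 4 members above both CD37 fl/fl libraries.

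None of these differences passed the test across all genes. At an adjusted p under 0.05 (limma, Benjamini-Hochberg), 0 of the 41 members and 0.0% of all tested genes were called, and the smallest adjusted p of a member was 0.135 (*Psme2*). At an unadjusted p under 0.05 in limma, 4 members were lower (*Psma6*, *Psmg1*, *Psme1* and *Psme2*), which is 9.76% against 7.96% of all tested genes. At the same threshold 2 members were higher (*Psmd1* and *Psme3*), which is 4.88% against 16.1% of all tested genes. The share of lower calls was thus close to that of all genes, whereas the share of members below both CD37 fl/fl libraries was not. Without CD37 fl/fl replicate 2, the counts at an unadjusted p under 0.05 were 2 lower and 2 higher, and 25 members (61.0%) were below and 10 (24.4%) above the remaining CD37 fl/fl library, against 31.9% and 51.8% of all tested genes. Without CD37 fl/fl replicate 1 or without CD37 -/- replicate 2, both counts of calls were 0.

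The direction depended on how the libraries were scaled, whereas the position of the members below the typical gene did not. Rescaling each library to the same sum of FPKM (TPM) moved the median of all tested genes from 0.11 to 0.49 and that of the members from -0.36 to 0.0098. After this rescaling 14 members were below and 16 above both CD37 fl/fl libraries, which is 34.1% and 39.0% of members against 10.2% and 60.3% of all tested genes. The fold change of 11 members turned from negative to positive, the lowest of them that of *Psmc4* (-0.36 as deposited). After quantile normalization the median tested gene was at -0.02, with 29 members (70.7%) below and 3 (7.32%) above, against 32.0% and 27.1% of all tested genes. Relative to the median of all tested genes, the median of the members was -0.47 as deposited, -0.48 after TPM rescaling and -0.25 after quantile normalization.

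**Figure D1:**
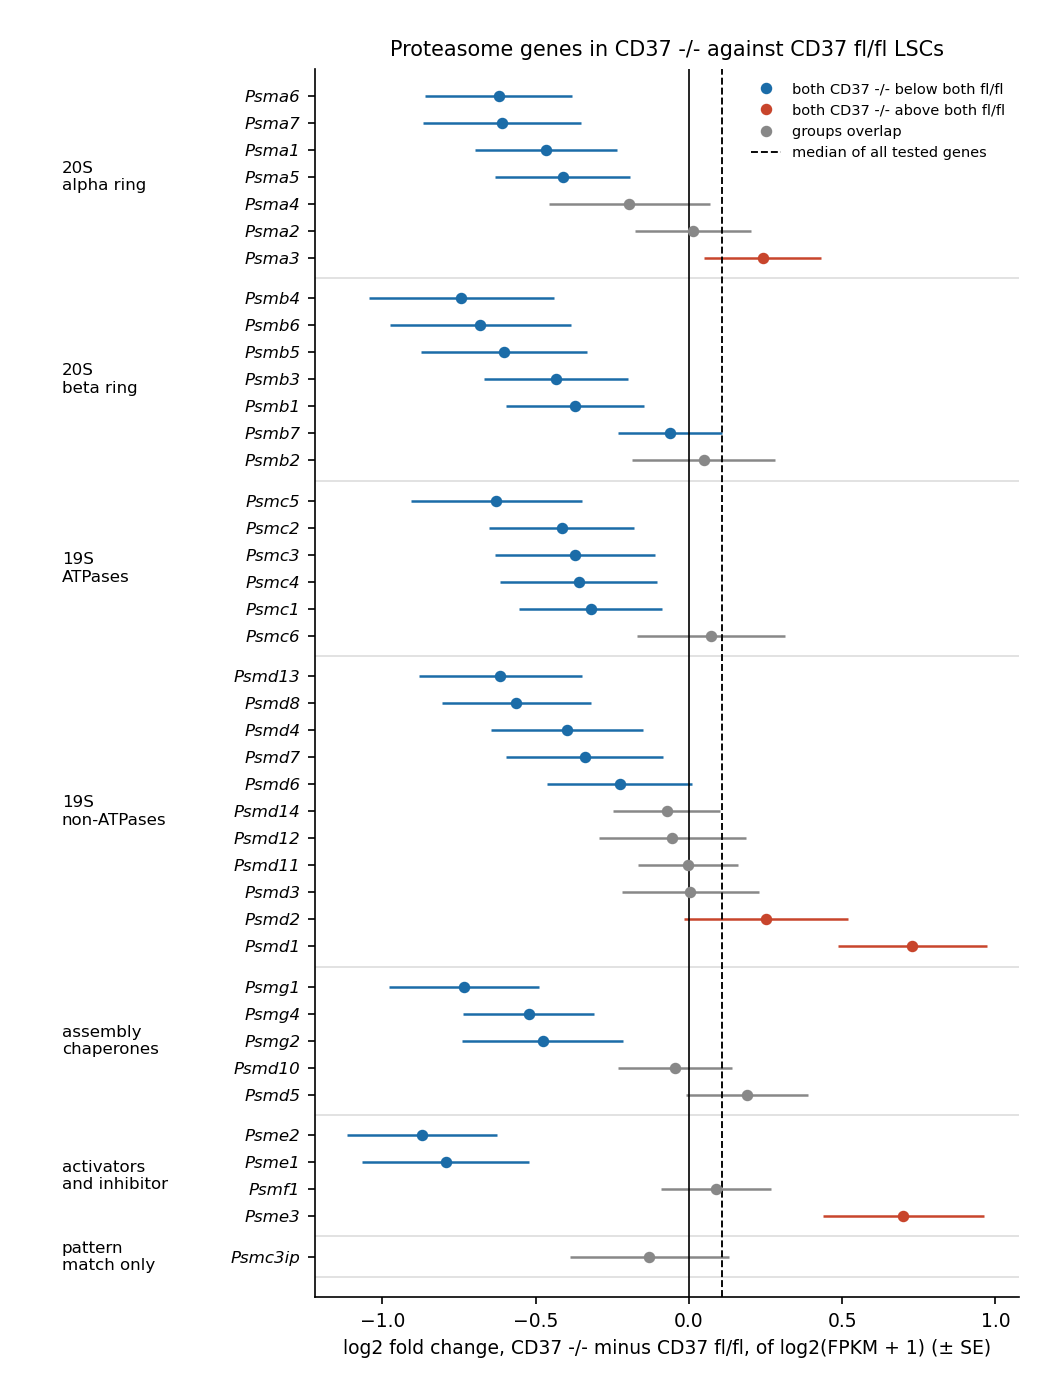
Log2 fold change (CD37 -/- minus CD37 fl/fl, on log2(FPKM + 1)) of the 41 tested proteasome genes, grouped by role, with 1 standard error of limma on each side, and colour for whether the 2 libraries of each group overlap. The dashed line is the median of all tested genes (0.11), and 36 of the 41 points lie to its left, from -0.87 for *Psme2* to 0.73 for *Psmd1*.

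The summed reads of the members gave a similar picture without any logarithm or filter. Shares of reads are scaled to library depth, as the deposited FPKM are, so they do not address the dependence on scaling. The reads of all 46 genes made up 1.12% and 1.15% of the total in CD37 fl/fl against 0.966% and 0.822% in CD37 -/- LSCs, so that the mean share was 78.7% of that in CD37 fl/fl. The 20S core took 0.474% ± 0.00636 (SD, n = 2) of the reads in CD37 fl/fl against 0.343% ± 0.0502 (SD, n = 2) in CD37 -/- LSCs. The 19S cap took 0.521% ± 0.0138 (SD, n = 2) and 0.436% ± 0.0455 (SD, n = 2). In each class both CD37 -/- libraries lay below both CD37 fl/fl libraries. The log2 ratio of 19S reads to 20S reads was 0.13 and 0.15 in CD37 fl/fl against 0.31 and 0.39 in CD37 -/- libraries. With 2 libraries against 2, an exact two-sided permutation test of such a sum cannot go below p = 0.333. In bulk samples, fewer cells with high levels and less RNA per cell cannot be told apart.

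**Figure D2:**
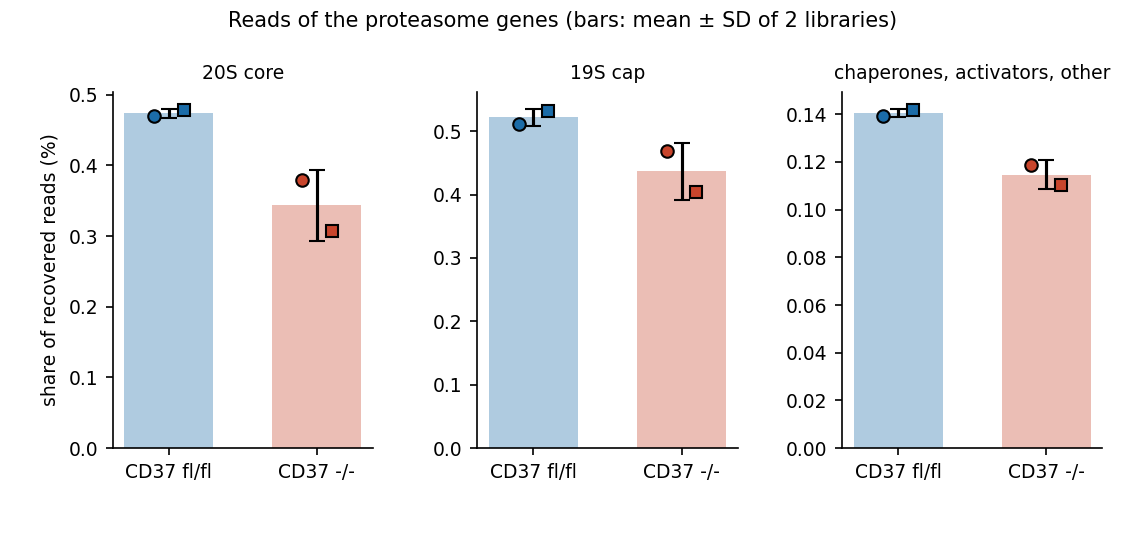
Share of all recovered reads (%, from 0) taken by the 20S core, the 19S cap and the other members in each library, with bars for the mean and error bars for the SD of 2 libraries (circle, replicate 1; square, replicate 2). CD37 -/- replicate 2 has the lowest share in each panel, with 0.308% for the 20S core against 0.469% and 0.478% in the CD37 fl/fl libraries.

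The 2 CD37 -/- libraries differed from each other along the same axis. The median of the members against the CD37 fl/fl mean was -0.22 in replicate 1 and -0.53 in replicate 2, and 36 of the 41 members were lower in replicate 2. Over all tested genes the CD37 -/- replicates differed by a median of 0.0081, and 3316 of 6761 genes were lower in replicate 2. In CD37 fl/fl LSCs, replicate 2 was higher than replicate 1 by a median of 0.11 over the members and 0.09 over all tested genes. Lower in CD37 fl/fl replicate 2 were 13 of the 41 members, against 2623 of the 6761 tested genes. This order of the CD37 -/- replicates was found in 6 of 7 alpha, 7 of 7 beta, 6 of 6 ATPase, 9 of 11 non-ATPase, 4 of 5 chaperone and 3 of 4 activator and inhibitor genes.

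**Figure D3:**
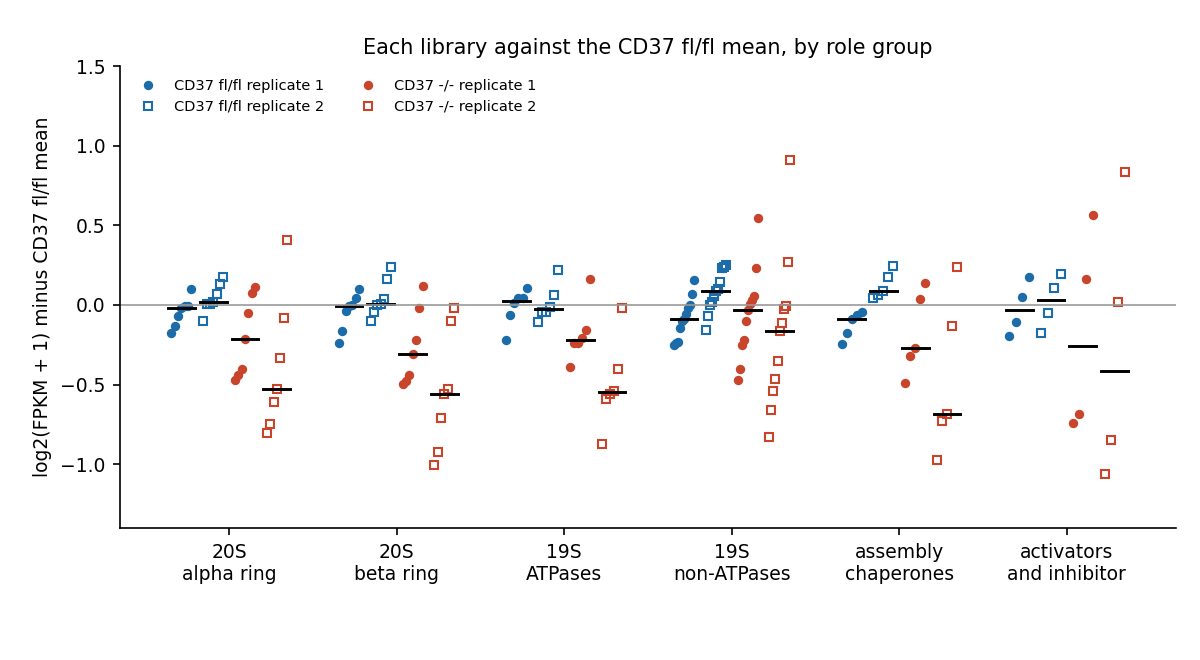
Log2(FPKM + 1) of each tested member minus its CD37 fl/fl mean, by role group and library, with a bar at the median of the group. The medians of CD37 -/- replicate 2 run from -0.16 for the 19S non-ATPases to -0.68 for the chaperones, and those of replicate 1 lie nearer to 0 in every group.

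The regions upstream of the members were read because the genes are known to be regulated together, in part by Nfe2l1, which binds antioxidant response elements when proteasome activity is short. RefSeq promoters (GRCm38.p6) matched 38 of the 46 members, and the 250 bases before the start were searched on both strands. The motifs were CCAAT, TGACNNNGC (the core of the antioxidant response element), CCGGAAG (an ETS site) and GCGCATGC (the site of nuclear respiratory factor 1), none of which contains another. The ETS letters were found in 13 of the 38 members (34.2%), against 10.2% of 17491 protein-coding genes, in 8 of 14 19S genes and in 1 of 12 20S genes. CCAAT was in 14 members (36.8% against 39.5% of all genes), with 7 of 12 20S genes and 4 of 14 19S genes. TGACNNNGC was in 5 members (*Psmb5*, *Psmb6*, *Psmc6*, *Psmd12* and *Psmd9*; 13.2% against 12.0%) and GCGCATGC in *Psma2* and *Psmc5* (5.26% against 3.32%). Of the 22 matched members that were below both CD37 fl/fl libraries, those under the filter included, 6 (27.3%) held the ETS letters, 8 (36.4%) CCAAT and 3 (13.6%) TGACNNNGC. The 4 regions printed here, 5′ to 3′ on the strand of the gene and with matches in capitals, are those of 2 catalytic subunits with the antioxidant letters, of the ATPase with the lowest fold change and of *Psme3*, a member that was higher. That of *Psmb5* is chr14:54617996-54618245 (minus strand), that of *Psmb6* chr11:70525107-70525356, that of *Psmc5* chr11:106255935-106256184 and that of *Psme3* chr11:101315963-101316212 (all plus strand). In *Psme3* the capitals are the ETS letters and, on the other strand, CCAAT.
Psmb5: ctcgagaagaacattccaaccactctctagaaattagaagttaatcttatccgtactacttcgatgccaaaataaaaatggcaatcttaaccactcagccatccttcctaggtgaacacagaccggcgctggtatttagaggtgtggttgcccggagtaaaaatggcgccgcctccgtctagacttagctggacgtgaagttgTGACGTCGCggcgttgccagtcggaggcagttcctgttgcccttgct
Psmb6: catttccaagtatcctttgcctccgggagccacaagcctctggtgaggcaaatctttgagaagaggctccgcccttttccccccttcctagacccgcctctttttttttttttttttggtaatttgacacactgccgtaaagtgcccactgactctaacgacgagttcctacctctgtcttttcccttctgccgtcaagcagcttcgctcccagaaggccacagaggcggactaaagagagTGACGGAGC
Psmc5: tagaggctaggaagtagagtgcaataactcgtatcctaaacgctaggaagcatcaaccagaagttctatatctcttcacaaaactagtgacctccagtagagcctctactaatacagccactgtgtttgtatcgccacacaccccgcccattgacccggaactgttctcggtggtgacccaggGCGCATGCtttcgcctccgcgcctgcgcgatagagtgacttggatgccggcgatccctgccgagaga
Psme3: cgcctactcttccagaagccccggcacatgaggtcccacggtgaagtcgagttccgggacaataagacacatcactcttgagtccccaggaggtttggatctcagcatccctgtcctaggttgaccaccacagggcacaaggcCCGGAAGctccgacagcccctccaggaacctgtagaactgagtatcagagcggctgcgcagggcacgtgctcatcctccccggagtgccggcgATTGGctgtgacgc

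The alpha ring genes encode the gate of the 20S core and the surface on which caps dock. Of 7 tested, 4 were below both CD37 fl/fl libraries, 1 was above and 2 overlapped, with a median log2 fold change of -0.41 (-0.10 after TPM rescaling). In each role group such counts stand against 23.7% below and 38.2% above of all tested genes. *Psma6* (chromosome 12 of GRCm38, 55384222 to 55418454) was at 18.7 and 16.1 FPKM in CD37 fl/fl against 12.5 and 9.53 in CD37 -/- libraries. The groups did not overlap, and the log2 fold change was -0.62 (SE 0.24, Benjamini-Hochberg adjusted p = 0.194, limma). *Psma7* was at 92.6 and 93.8 against 66.9 and 55.1, a log2 fold change of -0.61 (SE 0.26), with CD37 fl/fl values that lay close together. *Psma1* was at 37.0 and 38.1 against 28.2 and 25.7 (-0.46, SE 0.23). *Psma5* was also lower in both CD37 -/- libraries (-0.41), with 54.5% of the 50-base windows of its main transcript shared with other genes, mostly pseudogenes, so that its value is uncertain. *Psma2*, the alpha gene nearest to the typical gene, was at 4.31 and 4.83 against 5.01 and 4.26 (0.014, SE 0.19), and *Psma4* overlapped too (-0.19). *Psma3* was at 0.24 with both CD37 -/- libraries above, and 22.0% of its windows are shared. The testis subunit gene *Psma8* was below the filter, with 1 and 0 reads in CD37 fl/fl against 39 and 13 reads in CD37 -/- libraries, where a count of 0 allows up to 3 reads.

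The beta ring carries the proteolytic sites, encoded by *Psmb6* (caspase-like), *Psmb7* (trypsin-like) and *Psmb5* (chymotrypsin-like). Of its 7 tested genes, 6 were below both CD37 fl/fl libraries and *Psmb2* overlapped, with a median of -0.43 (-0.07 after TPM rescaling). *Psmb5* (chromosome 14, 54614119 to 54618022) was at 80.9 and 102 FPKM in CD37 fl/fl against 63.9 and 55.1 in CD37 -/- libraries. The log2 fold change was -0.60 (SE 0.27, Benjamini-Hochberg adjusted p = 0.234, limma), and 57.1% of its windows are shared with other genes. *Psmb6* (chromosome 11, 70525367 to 70527858), with 2.7% of windows shared, was at 168 and 146 against 116 and 82.5, a log2 fold change of -0.68 (SE 0.30). Both CD37 -/- libraries were thus below both CD37 fl/fl libraries for these 2 catalytic subunits. *Psmb7* (chromosome 2, 38588036 to 38644087) was at 3.33 and 3.32 against 3.26 and 3.03. Its groups did not overlap either, but the difference was small (-0.06, SE 0.17) and it turned to 0.28 after TPM rescaling. As a share of the CD37 fl/fl mean FPKM, the CD37 -/- mean was 65.2% for *Psmb5*, 62.9% for *Psmb6* and 94.6% for *Psmb7*. Whether the 3 catalytic subunits differ in their change was not tested. Reads of *Psmb7* cannot be told apart from those of *Nek6*, which overlaps it on the other strand, unless the counting used strand, which is not stated. The lowest fold change of the ring was that of *Psmb4*, a structural subunit, at 231 and 217 against 160 and 111 (-0.74, SE 0.30, Benjamini-Hochberg adjusted p = 0.209, limma). *Psmb3* (-0.43, with 55.8% of windows shared) and *Psmb1* (-0.37) were lower in both CD37 -/- libraries as well. *Psmb2* was at 4.65 and 6.89 against 6.24 and 5.59 (0.05, SE 0.23). The thymus subunit gene *Psmb11* was below the filter, with 5 and 15 reads in CD37 fl/fl against 2 and 4 reads in CD37 -/- libraries.

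The ring of 19S ATPases unfolds substrates and opens the gate of the core. Of its 6 genes, 5 were below both CD37 fl/fl libraries, with a median of -0.37 (0.0043 after TPM rescaling). *Psmc5* was at 62.0 and 58.2 FPKM in CD37 fl/fl against 45.7 and 32.4 in CD37 -/- libraries (-0.63, SE 0.28). *Psmc2* was at 19.96 and 18.7 against 16.2 and 12.5 (-0.41, SE 0.24). *Psmc3* was at 48.6 and 41.6 against 38.8 and 30.7 (-0.37, SE 0.26), and it overlaps *Slc39a13* on the other strand. The remaining ATPases of the group that was lower were *Psmc4* (-0.36) and *Psmc1* (-0.32). *Psmc6* was at 7.41 and 10.45 against 10.001 and 8.68 (0.07, SE 0.24), so that its groups overlapped.

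The 19S non-ATPase genes encode the scaffold, the ubiquitin receptors and the lid with its deubiquitinase. Of these 11 genes, 5 were below both CD37 fl/fl libraries, 2 were above and 4 overlapped, with a median of -0.07 (0.26 after TPM rescaling). *Psmd13* was at 26.3 and 20.9 FPKM in CD37 fl/fl against 17.5 and 12.8 in CD37 -/- libraries (-0.61, SE 0.27), and it overlaps *Sirt3* on the other strand. *Psmd8* was at 56.7 and 58.1 against 41.2 and 36.1 (-0.56, SE 0.24). Both encode lid subunits. *Psmd4*, the ubiquitin receptor, was at -0.40, *Psmd7*, the partner of the deubiquitinase, at -0.34 and *Psmd6* at -0.23, all lower in both CD37 -/- libraries. The deubiquitinase gene *Psmd14* (-0.07) and the lid genes *Psmd12* (-0.05) and *Psmd11* (-0.0013) overlapped between the groups, as did *Psmd3*, at 21.7 and 23.4 against 23.1 and 22.2 (0.0050, SE 0.22).

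The 2 large scaffold subunits of the 19S base, *Psmd1* and *Psmd2*, were the members of the cap above both CD37 fl/fl libraries. *Psmd1* (chromosome 1, 86064387 to 86139151) was at 0.62 and 1.30 FPKM in CD37 fl/fl against 1.82 and 2.63 in CD37 -/- libraries, from 711 to 4441 reads. The groups did not overlap, but the CD37 fl/fl replicates were far apart. The log2 fold change was 0.73 (SE 0.24, unadjusted p = 0.0253, Benjamini-Hochberg adjusted p = 0.161, limma), and 0.48 without CD37 fl/fl replicate 1. The predicted gene *Gm21972* overlaps *Psmd1* on the same strand. *Psmd2*, with 26.4% of windows shared, was at 27.5 and 38.3 FPKM in CD37 fl/fl against 38.4 and 39.3 in CD37 -/- libraries (0.25, SE 0.27). Its groups were thus barely apart, with CD37 fl/fl replicate 2 close to both CD37 -/- libraries.

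Chaperones of the core and of the base of the cap were measured, and of the 5 tested, 3 were below both CD37 fl/fl libraries and 2 overlapped. The core chaperones *Psmg1*, *Psmg2* and *Psmg4*, which help to build the alpha ring, were below both CD37 fl/fl libraries. *Psmg1* (chromosome 16, 95979933 to 95990960) was at 11.9 and 13.2 FPKM in CD37 fl/fl against 8.63 and 5.88 in CD37 -/- libraries. Its log2 fold change of -0.73 (SE 0.25, unadjusted p = 0.0256, Benjamini-Hochberg adjusted p = 0.161, limma) was -0.49 without CD37 -/- replicate 2. *Psmg4* was at 3.97 and 4.62 against 3.24 and 2.19 (-0.52, SE 0.21), and *Psmg2*, the partner of *Psmg1*, at 6.42 and 9.43 against 6.29 and 4.48 (-0.48, SE 0.26). *Psmg3*, the partner of *Psmg4*, was under the filter, at 0.812 and 0.999 against 1.23 and 0.832, from 41 to 72 reads, and overlapped. Of the chaperones of the 19S base, *Psmd10* (-0.05) overlapped between the groups, and so did *Psmd5*, at 2.63 and 3.62 against 3.51 and 3.83 (0.19, SE 0.20). *Psmd9* was under the filter, at 0.964 and 1.02 against 0.852 and 0.584, with both CD37 -/- libraries below. The median of the 5 tested chaperones was -0.48 (-0.17 after TPM rescaling).

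The activators gave the widest range of the module. *Psme1* and *Psme2* encode the subunits of the interferon-inducible PA28 ring of the cytoplasm, *Psme3* encodes its nuclear relative, which binds the core as a ring of its own, *Psme4* encodes PA200, and *Psmf1* a protein that inhibits the core in vitro. *Psme1* (chromosome 14, 55578123 to 55581529) was at 152 and 119 FPKM in CD37 fl/fl against 79.9 and 74.2 in CD37 -/- libraries, 56.97% of the CD37 fl/fl mean. *Psme2* (chromosome 14, 55587441 to 55591113) was at 27.4 and 25.6 against 16.1 and 12.2, 53.4% of the CD37 fl/fl mean. Both groups of libraries were apart for both genes, with log2 fold changes of -0.79 (SE 0.27, adjusted p = 0.165) and -0.87 (SE 0.24, adjusted p = 0.135) in limma with Benjamini-Hochberg adjustment. *Psme2* shares 59.3% of its windows with its retrocopy *Psme2b*, which was not analysed here, and *Psme1* overlaps *Emc9* on the other strand.

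*Psme3* (chromosome 11, 101316213 to 101323537) went the other way, with an FPKM of 17.7 and 23.4 in CD37 fl/fl against 30.6 and 37.0 in CD37 -/- libraries, from 1988 to 6138 reads and with 0.0% of windows shared. Both CD37 -/- libraries were higher, by 0.70 (SE 0.26, unadjusted p = 0.0388, Benjamini-Hochberg adjusted p = 0.186, limma). The value ranged from 0.36 to 1.10 over the alternative settings and did not change sign. Within each library, the log2 ratio of *Psme3* to *Psme1*, which no scaling of a library by 1 factor can alter, was -3.10 and -2.34 in CD37 fl/fl against -1.38 and -1.002 in CD37 -/- libraries. The log2 ratio of *Psme3* to *Psme2* was -0.63 and -0.13 against 0.92 and 1.60. Per kilobase of exon, *Psme3* was at an FPKM of 44.0 and 58.1 and *Psme2* at 57.1 and 53.3 in CD37 fl/fl LSCs, so that neither was the higher in both libraries. In CD37 -/- LSCs *Psme3* was the higher in both, at 76.1 and 92.0 against 33.6 and 25.4 for *Psme2*. The ratio of *Psme2* to *Psme1* overlapped between the groups (-2.47 and -2.21 against -2.31 and -2.61). *Psmf1* was at 1.65 and 2.08 against 2.19 and 1.89 (0.09, SE 0.18). *Psme4* was under the filter, at 0.819 and 0.767 against 0.869 and 0.995.

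*Psmc3ip*, which the name pattern takes in, encodes a protein of homologous recombination and is no proteasome subunit. It was at 8.94 and 12.3 FPKM in CD37 fl/fl against 11.0 and 8.21 in CD37 -/- libraries (-0.13, SE 0.26), and it overlaps *Mlx* on the other strand.

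The immunoproteasome subunits, outside the rule, were at negative log2 fold changes as well. *Psmb8* was at 18.9 and 23.8 FPKM in CD37 fl/fl against 12.7 and 16.3 in CD37 -/- libraries (-0.53, SE 0.25), and *Psmb9* at 18.3 and 15.6 against 12.2 and 16.0 (-0.26, SE 0.24). After TPM rescaling these were -0.18 and 0.10. The log2 ratio of *Psmb8* to the constitutive *Psmb5* that it replaces was -2.10 and -2.10 in CD37 fl/fl against -2.33 and -1.76 in CD37 -/- libraries, so that the groups overlapped. That of *Psmb9* to *Psmb6* was -3.20 and -3.23 against -3.25 and -2.37 and overlapped as well. *Psmb10* was not analysed here.

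Levels of different members can be compared per kilobase of exon, as FPKM computed with the length of all exons of a gene. On this scale the level of tested members in CD37 fl/fl LSCs ran from 8.22 for *Psmf1* to 483 for *Psma6*. Within the alpha ring, whose subunits stand in the particle in equal numbers, *Psma6* was 40.3 times the lowest, *Psma3* at 12.0. Within the beta ring *Psmb5* (396) was 7.28 times *Psmb7* (54.5), and within the ATPases *Psmc5* (300.4) was 5.91 times *Psmc6* (50.8). *Psmd1* was the lowest non-ATPase at 9.87, and *Psmd7* the highest at 138. The median level of the alpha, beta and ATPase genes was 93.4, 154 and 175 in CD37 fl/fl against 81.0, 132 and 136 in CD37 -/- LSCs. In the CD37 fl/fl libraries both values of *Psma4* (81.8 and 105) lay above both of *Psma2* (71.6 and 80.3). Those of *Psma5* (73.0 and 91.3) overlapped with each of these genes across libraries, although the order was the same within each library. The length of the main transcript alone, an alternative added after the data were seen, put *Psma7* (618) and *Psmb4* (543) at the top of their rings, so that the order depends on the length used, whereas *Psma3*, *Psmb7*, *Psmc6*, *Psmd1*, *Psmd5* and *Psmf1* were the lowest of their groups with both lengths.

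**Figure D4:**
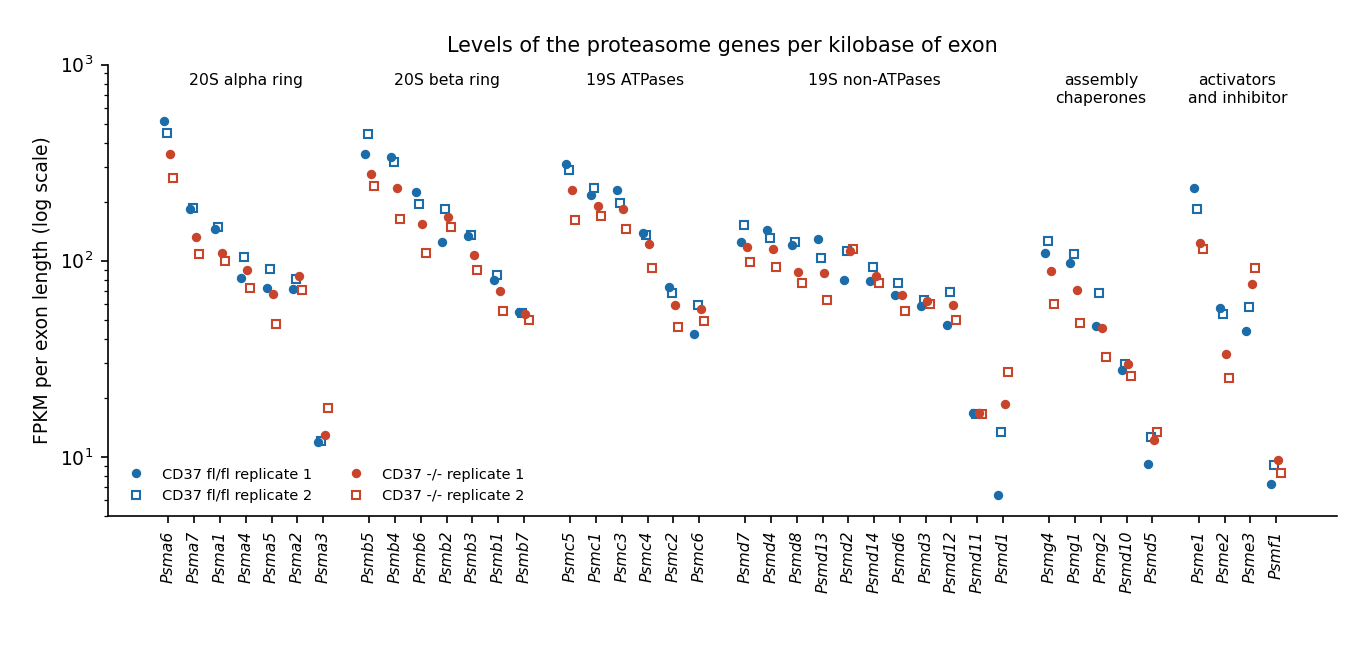
FPKM per exon length (log axis) of the tested proteasome genes in each library, by role group and ordered by the CD37 fl/fl mean. Levels span from 6.39 (*Psmd1*) to 518 (*Psma6*) in CD37 fl/fl replicate 1, and the CD37 -/- libraries lie below the CD37 fl/fl libraries for most of the high genes of each group.

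Mean FPKM as deposited, per kilobase of gene span, and exon length moved with the fold change in these libraries, for the members and for genes at large. Over the 41 tested members Spearman's rho was -0.57 between mean FPKM and log2 fold change and 0.56 between exon length and log2 fold change, as a description of genes that share the same 4 libraries. Over all 6761 tested genes the same rho was -0.25 for FPKM, and it was 0.25 for exon length over the 6737 genes with a length. Of the 1127 tested genes with the highest mean FPKM, of 21.02 or more, 46.1% were below both CD37 fl/fl libraries and the median was -0.29. They held 19 members, of which 15 were below both CD37 fl/fl libraries, with a median of -0.40. In the next lower 1127 genes, with a mean FPKM from 8.32, the median was 0.013, and the 8 members among them had a median of -0.51, with 6 below both CD37 fl/fl libraries against 28.1% of these genes. Of these members, 14 of 19 in the highest class and 7 of 8 in the next were below the median of their class. In the classes of lower FPKM fewer members were below both CD37 fl/fl libraries, with 1 of 5 in the fourth class (22.7% of its genes), 3 of 5 in the third (17.9%), 0 of 3 in the second (15.4%) and 0 of 1 in the lowest (11.8%). By length, 3 of 4 members with an exon length under 1244 bases and 12 of 14 members from there to 2344 bases were below both CD37 fl/fl libraries, against 38.2% and 36.0% of the genes of these lengths. In the longer classes these were 6 of 10 members (24.6% of genes), 2 of 6 (18.6%), 2 of 3 (15.7%) and, in the longest, 0 of 4 (9.26%). The part of FPKM and exon length in the result was not tested beyond these values. No relation between fold change and the level per kilobase of exon was computed.

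**Figure D5:**
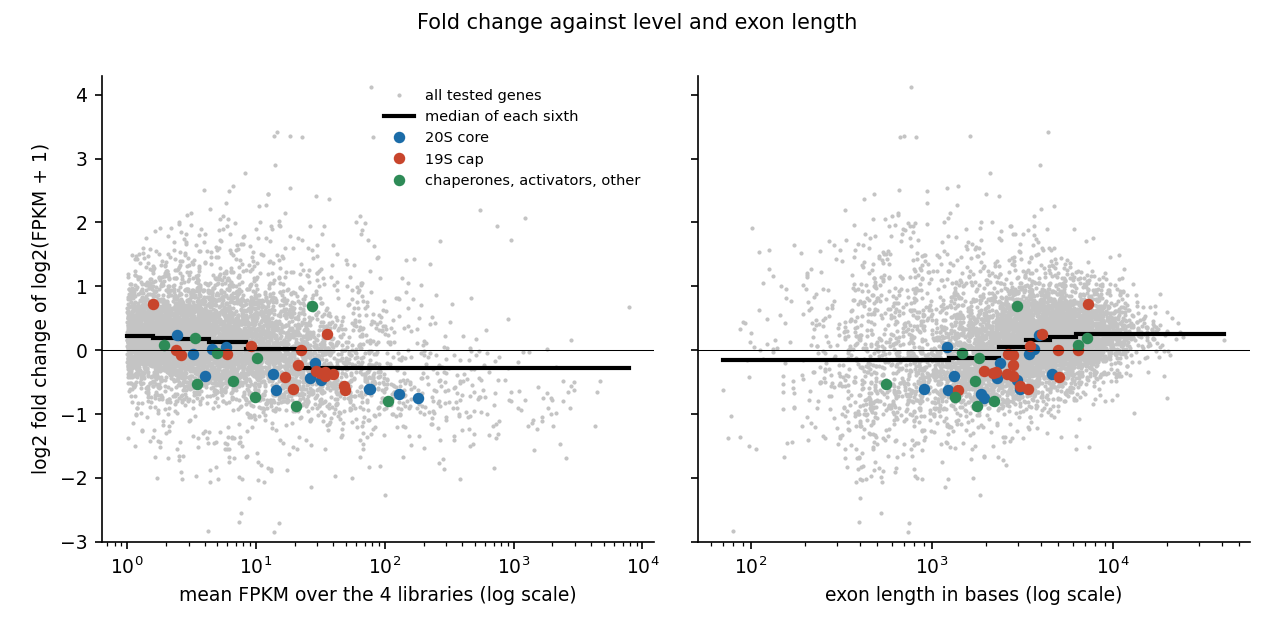
Log2 fold change against mean FPKM (left, log axis) and exon length (right, log axis) for the 6761 tested genes (grey) with the members in colour and black bars at the median of equal-sized classes of genes. The class medians run from 0.22 to -0.29 with rising FPKM and from -0.15 to 0.25 with rising exon length, and most members lie below the bars.

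Other genes of the pathway were read from lists of proteins that work with the proteasome. In all lists, counts at an unadjusted p under 0.05 in limma stand against 16.1% higher and 7.96% lower of all tested genes. Of 19 tested partners of the proteasome, 2 (10.5%) were higher and 0 lower at an unadjusted p under 0.05 in limma, with a median of 0.09, close to that of all tested genes. *Zfand2a*, a stress-induced partner of the 19S cap, was at 1.66 and 1.49 FPKM in CD37 fl/fl against 2.79 and 4.23 in CD37 -/- libraries (0.79, SE 0.21), and it was higher after each rescaling of the libraries. *Txnl1*, a thioredoxin of the cap, was at 4.29 and 5.54 against 3.49 and 2.84 (-0.50, SE 0.20). *Pomp*, the maturation factor of the 20S core (20.98 and 19.7 against 17.1 and 10.5), and *Adrm1*, a ubiquitin receptor of the cap (24.1 and 24.2 against 18.7 and 15.1), were also lower in both CD37 -/- libraries, a choice made after their values were seen.

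Of 11 tested regulators of proteasome genes, 3 (27.3%, against 16.1% of all tested genes) were higher and 0 lower at an unadjusted p under 0.05 in limma, with a median of 0.42. *Mafk*, a small Maf protein that pairs with Nfe2l1 and Nfe2l2, was at 2.6997 and 2.65 FPKM in CD37 fl/fl against 6.30 and 7.94 in CD37 -/- libraries (1.14, SE 0.19). *Keap1*, the adaptor for the degradation of Nfe2l2, was at 1.08 and 1.34 against 3.37 and 5.92 (1.32, SE 0.26). *Foxm1*, a transcription factor of dividing cells, was at 3.10 and 3.28 against 4.94 and 6.69 (0.69, SE 0.21). These 3 genes were above both CD37 fl/fl libraries and kept an unadjusted p under 0.05 after quantile normalization, TPM rescaling and scaling to the upper quartile. *Nfe2l1*, given because the promoter search names it, was at 11.277 and 17.3 FPKM in CD37 fl/fl against 11.278 and 13.7 in CD37 -/- libraries. Its groups overlapped (-0.16, SE 0.28).

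Of 13 tested genes of ubiquitin, its activation and the p97 segregase, 1 was higher and 1 lower at an unadjusted p under 0.05 in limma, with a median of -0.015. *Vcp*, which encodes p97, was at 0.680 and 1.01 FPKM in CD37 fl/fl against 2.10 and 3.502 in CD37 -/- libraries (1.02, SE 0.24). Its cofactor *Ubxn1* was at 51.2 and 57.4 against 34.0 and 29.2 (-0.76, SE 0.25). The ubiquitin-activating enzyme gene *Uba1* was at 11.9 and 15.7 against 18.5 and 23.0 (0.56, SE 0.25).

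Since *Psme1*, *Psme2* and the immunoproteasome subunits respond to interferon, 13 tested interferon-inducible genes were set beside them. Of these, 4 were higher and 1 lower at an unadjusted p under 0.05 in limma, with a median of 0.43, so that the list lay on the other side of all tested genes from *Psme1* and *Psme2*. *Irf9*, a subunit of the interferon-response factor, was at 3.26 and 3.24 FPKM in CD37 fl/fl against 7.44 and 11.8 in CD37 -/- libraries (1.29, SE 0.25). *Gbp3* (0.708 and 1.42 against 3.13 and 3.03) and *Oas2* (2.21 and 1.01 against 3.48 and 7.89) were above both CD37 fl/fl libraries too.

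Markers of other cells that the sort could hold differed between the libraries, with erythroid markers higher and lymphoid markers lower in both CD37 -/- libraries. The 8 erythroid markers in the table summed to an FPKM of 61.0 and 5.17 in CD37 fl/fl against 577 and 144 in CD37 -/- libraries. The 9 macrophage and dendritic cell markers summed to 253 and 34.1 against 17.2 and 50.6, with *Xcr1* near 0 throughout, and the 7 neutrophil markers to 18314 and 3581 against 18366 and 10234. Of the lymphoid markers, *Cd79b* and *Nkg7* made up nearly all of the sums, which were 12.8 and 15.4 against 8.46 and 6.64 for B cells and 94.7 and 118 against 40.3 and 41.4 for T and NK cells. The 5 stromal markers summed to at most 0.075. Of 10 proliferation genes, 5 were higher at an unadjusted p under 0.05 in limma, with a median of 0.56. The part of these cells in the values of the proteasome genes was not tested.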

How the data were processed

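YFP+, c-kit+ LSCs of 2 CD37 fl/fl and 2 CD37 -/- replicates were compared. The authors deposited FPKM values, 1 column per library, without pooling. The submitters' processing notes name fastp 0.20.1, STAR 2.7.7a, featureCounts 2.0.0, edgeR and the build mm39, without their roles. Use of strand in counting and the annotation are not given in the sources used here. The GENCODE M21 annotation of GRCm38 supplied names and positions and matched 17045 of 17104 genes (99.7%), so that positions are those of GRCm38. With the gene spans of that annotation, 98.9% of the values of each library came out as whole reads (tolerance 0.05 reads, met by chance for 10.0%), against at most 11.9% with exon length. Recovered reads were used for depth, shares and alternatives.

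Values were tested as log2(FPKM + 1) with limma 3.58.1 (lmFit, eBayes with a trend; R 4.3.3), over the 6761 genes whose FPKM averaged 1 or more, with p-values adjusted by Benjamini-Hochberg and a threshold of 0.05. The code was tested on simulated data. Sequence shared with other genes was counted in 50-base windows of the main transcript. Figures were drawn in Python 3.11.15 with matplotlib 3.10.9. No block was fitted, since nothing states that equal replicate numbers mark paired libraries.

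Every member is named. Values in each library are given for *Psmb5*, *Psmb6* and *Psmb7*, for the 3 smallest p and the member nearest to the typical gene in each role group, and for members under the filter. Of each list of other genes of the pathway the 3 smallest p are given, except for 1 gene that is not reported here. The members and lists were chosen with earlier results of these data known, so lists are described by counts and medians without a test. Alternatives were quantile normalization, scaling to the upper quartile or to TPM, another pseudocount (0.1), a filter at 0 or at a mean of 5 FPKM, robust or untrended eBayes, the replicate number as a block and each library left out. Exon length, limma-voom on recovered reads (mean of at least 10), exon length with TPM rescaling, the median relative to all genes and non-overlap under each scaling were added after the data were seen.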

Additional observations from a re-analysis of the deposited data

How the results depend on the processing

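At an adjusted p under 0.05 (limma, Benjamini-Hochberg), 0 members were called under every alternative. Among all tested genes the calls were 0 as reported, and 45 with a mean FPKM of at least 5, 46 with the upper quartile, 88 with robust estimation, 16 with exon length, 73 with the replicate block and 519 with exon length and TPM rescaling. The 2 higher members at an unadjusted p under 0.05 were 1 with all genes above 0, with a mean FPKM of at least 5, after quantile normalization and with the upper quartile, and 0 to 2 without each library. The 4 lower members were 9 with all genes above 0, 0 after TPM rescaling, 15 with the upper quartile, 12 without a trend, 8 with exon length, 12 with limma-voom, 24 with limma-voom at equal medians, 1 with exon length and TPM rescaling, and 0 to 9 without each library. The median of -0.36 was 0.0098 after TPM rescaling, -0.54 with the upper quartile, -0.71 with limma-voom at equal medians, -0.13 with exon length and TPM rescaling, and -0.53 to -0.22 without each library. Relative to all tested genes the median of -0.47 was -0.29 with all genes above 0, -0.25 after quantile normalization, -0.61 with limma-voom, and -0.64 to -0.32 without each library. The 25 members below both CD37 fl/fl libraries were 14 after TPM rescaling and 25 to 33 without each library. The 4 above were 16 after TPM rescaling, 2 with the upper quartile and 4 to 10 without each library, where fewer values make separation easier. The cause of the other shifts was not tested.

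Among the 41 members, 11 negative values turned positive after TPM rescaling (*Psma4*, *Psmb7*, *Psmc1*, *Psmc3ip*, *Psmc4*, *Psmd6*, *Psmd7*, *Psmd10*, *Psmd11*, *Psmd12* and *Psmd14*) and 7 with exon length besides. Positive values turned negative for 4 after quantile normalization, 5 with the upper quartile, 1 with limma-voom and 8 with limma-voom at equal medians. After quantile normalization *Psma2* was at -0.16, *Psmb2* at -0.10, *Psmc6* at -0.025 and *Psmf1* at -0.12. With the upper quartile they were at -0.14, -0.11, -0.092 and -0.032, and *Psmd3* was at -0.17. With limma-voom *Psmd3* was at -4.2e-04. At equal medians *Psma2* was at -0.34, *Psmb2* at -0.30, *Psmc6* at -0.28, *Psmd3* at -0.36, *Psmd5* at -0.11 and *Psmf1* at -0.23. *Psmb7* was at 0.28 after TPM rescaling and 0.15 with exon length besides, and *Psmc3ip* at 0.23 and 0.085. Without each library *Psma2* ran from -0.083 to 0.11, *Psmb2* from -0.19 to 0.29, *Psmc6* from -0.15 to 0.30, *Psmd3* from -0.049 to 0.059, *Psmf1* from -0.018 to 0.20 and *Psmc3ip* from -0.34 to 0.082, and the sign of *Psmd10*, *Psmd11*, *Psmd12* and *Psmd14* also turned without one library or another.

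Over all tested genes, the difference between replicates 1 and 2 in CD37 fl/fl LSCs had a correlation of -0.042 with that in CD37 -/- LSCs. With 2 libraries per group, this value cannot decide whether equal numbers mark paired libraries. With the replicate block the members gave the same 2 higher and 4 lower calls in number and a median of -0.36. Where an arm held 1 library, that library was assumed to vary like the other group.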
